A study of Mus musculus with 10 samples.

Results

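Proteins made in the endoplasmic reticulum (ER) leave it in vesicles with the COPII coat, and vesicles with the COPI coat carry escaped ER proteins and transport machinery back from the Golgi. The 39 genes described here encode the parts of this exchange, and all 39 of the 39 symbols listed for the pathway were found in the table of 27179 genes. They fall into 13 genes of the COPII coat and ER exit sites, 6 cargo receptors, 3 KDEL receptors, 11 genes of the COPI coat and its Arf GTPases, 3 SNAREs and 3 Golgi matrix genes. The genes were chosen by their function, with earlier results of these data known. In secretory cells the transcription factor XBP1, made from an mRNA that IRE1α splices under ER stress, is known to activate many genes of this pathway.

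RNA from whole lung was sequenced in 5 EpithelialKO mice, of genotype Shh Cre/+ IRE1α fl/fl, and in 5 Flox mice, of genotype Shh +/+ IRE1α fl/fl. Mice of both groups therefore carried floxed alleles of Ern1, the gene of IRE1α, and the groups also differed in the Cre allele at Shh, so an effect of that allele and one of the loss of IRE1α cannot be told apart. The labels give no age, sex or treatment. Cre from the Shh locus acts in the epithelium, whereas whole lung also holds endothelial, stromal and immune cells that keep Ern1. In such bulk RNA, fewer cells of a type and less RNA per cell cannot be told apart.

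Total counts lay between 16234895 and 18870247 in EpithelialKO mice and between 14983829 and 21224412 in Flox mice. Xist, transcribed from the inactive X chromosome, had 3949 counts in Flox mouse 4 and 4866 in Flox mouse 6, which had 0 counts of Y-linked genes. In the other 8 mice Xist had 2 to 61 counts, and Y-linked genes summed to 2462 to 3575. By these counts Flox mice 4 and 6 were female and all EpithelialKO mice male. Sex was thus unbalanced between the groups, and the comparison held no term for it. Ern1 stood at 12.3, 15.5, 10.7, 21.8 and 26.1 CPM (counts scaled to the size of each library) in EpithelialKO mice 17, 18, 20, 21 and 22, against 20.2, 19.8, 15.7, 8.05 and 20.5 CPM in Flox mice 2, 3, 4, 5 and 6, the order used for all values per mouse. The groups overlapped, and log2 of the ratio was 0.04 ± 0.27 (SE), at an adjusted p of 0.975 in edgeR. The floxed exons are not named in the labels, so whole-gene counts do not check the genotype. Markers of lung cell types were present in both groups. The summed CPM of 8 alveolar type 2 (AT2) markers ran from 48360 to 59810 in EpithelialKO and from 40240 to 48250 in Flox, without overlap. Summed CPM of 7 fibroblast and matrix markers ran from 862.8 to 980.9 in EpithelialKO and from 1009 to 1563 in Flox, also without overlap. For 7 endothelial markers the range was 2280 to 2967 in EpithelialKO and 3023 to 3989 in Flox. Summed levels of the other marker lists overlapped between the groups. Summed CPM of 6 club cell markers ran from 34650 to 54450 in EpithelialKO and from 22190 to 47950 in Flox, with a positive fold change in 6 of 6 markers and a median of 0.49. Fold changes were positive in 6 of 6 ciliated cell markers, in 0 of 5 smooth muscle markers and in 0 of 4 mesothelial markers. Summed CPM of 7 plasma cell markers ran from 666.5 to 762.3 in EpithelialKO and from 457.3 to 745.4 in Flox, and that of 6 mucous cell markers from 30.2 to 439.4 in EpithelialKO and from 54.2 to 177 in Flox. The plasma cell list includes Xbp1, at a mean of 242 CPM in EpithelialKO and 236 in Flox, so its sum is in part that of this regulator. Of the AT2, fibroblast and endothelial lists, 8 of 8, 1 of 7 and 0 of 7 markers had a positive fold change. None of these markers passed the adjusted threshold, and none was at 0 in all mice.

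XBP1, ATF6 and the CREB3 family are known to bind short elements in promoters of secretory genes. The RefSeq promoter windows of GRCm38.p6, 250 bases before to 50 after a transcript start, were searched for 3 motifs on both strands. They were the ER stress response element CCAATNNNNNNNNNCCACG, the unfolded protein response element core TGACGTG, and the CREB/ATF core TGACG, which is contained in the second. A window was found for 34 of the 39 genes. The first motif was in 0 of the 34 genes and in 0.137% of all 27025 genes with a window. TGACGTG was in 9 of the 34 (26.5%), namely Arf1, Copb1, Copb2, Gbf1, Kdelr3, Mia3, Sec23a, Sec24d and Stx5a, against 2.22% of all genes and 3.13% of the genes tested for expression. TGACG was in 22 of the 34 (64.7%), against 23.0% of all genes and 33.3% of those tested. A match of letters is not a binding site.

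The stretches below are the last 100 bases before a RefSeq transcript start, read 5′ to 3′ on the strand of the gene, and show where the letters lie. They are the 4 stretches that hold TGACGTG entirely before the start, or TGACG in a gene whose values are given per mouse, and that share at most 30 bases with an exon of the gene in the GENCODE M21 basic annotation, whose exons can begin before the RefSeq start. Capitals mark TGACGTG or TGACG, or their reverse complements CACGTCA and CGTCA.
Mia3, chr1:183369566-183369665, minus strand: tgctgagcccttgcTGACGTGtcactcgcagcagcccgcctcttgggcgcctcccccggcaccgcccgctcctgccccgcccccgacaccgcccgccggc
Kdelr3, chr15:79516308-79516407, plus strand: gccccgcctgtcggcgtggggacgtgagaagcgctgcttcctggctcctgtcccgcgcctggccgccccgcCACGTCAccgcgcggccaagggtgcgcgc
Copz1, chr15:103272788-103272887, plus strand: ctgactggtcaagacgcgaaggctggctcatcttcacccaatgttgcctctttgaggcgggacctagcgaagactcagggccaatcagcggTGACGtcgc
Stx5a, chr19:8741703-8741802, plus strand: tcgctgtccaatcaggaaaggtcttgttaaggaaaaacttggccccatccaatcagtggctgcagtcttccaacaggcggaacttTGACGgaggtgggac
In Mia3 and Kdelr3 the capitals mark the longer core, starting 86 and 29 bases before the start. In Copz1 and Stx5a they mark the shorter one, 9 and 15 bases before it. Stx5a has a further annotated start, and both of its longer cores lie after that one, 11 and 40 bases from it.

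No gene of the pathway passed an edgeR adjusted p of 0.05 between EpithelialKO and Flox lungs. Over all 15301 genes tested, 6 passed (0.0392%). All 39 genes passed the filter on low counts, with 90 to 11606 counts per mouse and a median of 1408. Exons of 11 of them (Sec23a, Sec24c, Preb, Kdelr3, Copa, Copg1, Copg2, Arf4, Gbf1, Golgb1 and Gorasp2) overlap another gene, and their counts are uncertain to that extent. The adjusted p ran from 0.289 to 0.999. At an unadjusted p under 0.05 there were 2 of the 39 genes (5.13%), against 12.4% of all genes tested. Both, the cargo receptors Tmed10 and Lman2, had negative fold changes, which together with such a p held for 6.52% of all genes tested.

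Fold changes were small and their intervals narrow. The log2 fold change (EpithelialKO over Flox) ran from -0.23 for Tmed10 to 0.19 for Copz1, with a median of -0.04 against 0.0008 for all genes tested. A signed value given for a gene from here on is this log2 fold change. It was negative in 25 and positive in 14 of the 39 genes, and negative in 49.9% of all genes. The median size without regard to sign was 0.096, against 0.161 over all genes. The 95% interval lay within a 1.5-fold difference in either direction for 38 of the 39 genes (97.4%), against 56.2% of all genes tested. The exception was Kdelr3, the least abundant by counts, whose ratio of EpithelialKO to Flox had an interval from 0.630 to 1.31. The median SE was 0.098 for the 39 genes and 0.161 for all genes tested. Size and interval of a fold change depend on counts, and the 39 genes were not matched to all genes by counts. The intervals are those of whole lung and not of the epithelium alone. Without Flox mice 4 and 6 the median of the 39 genes was 0.0265 in place of -0.04, so the sign of the median rested on those mice.

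**Figure D1:**
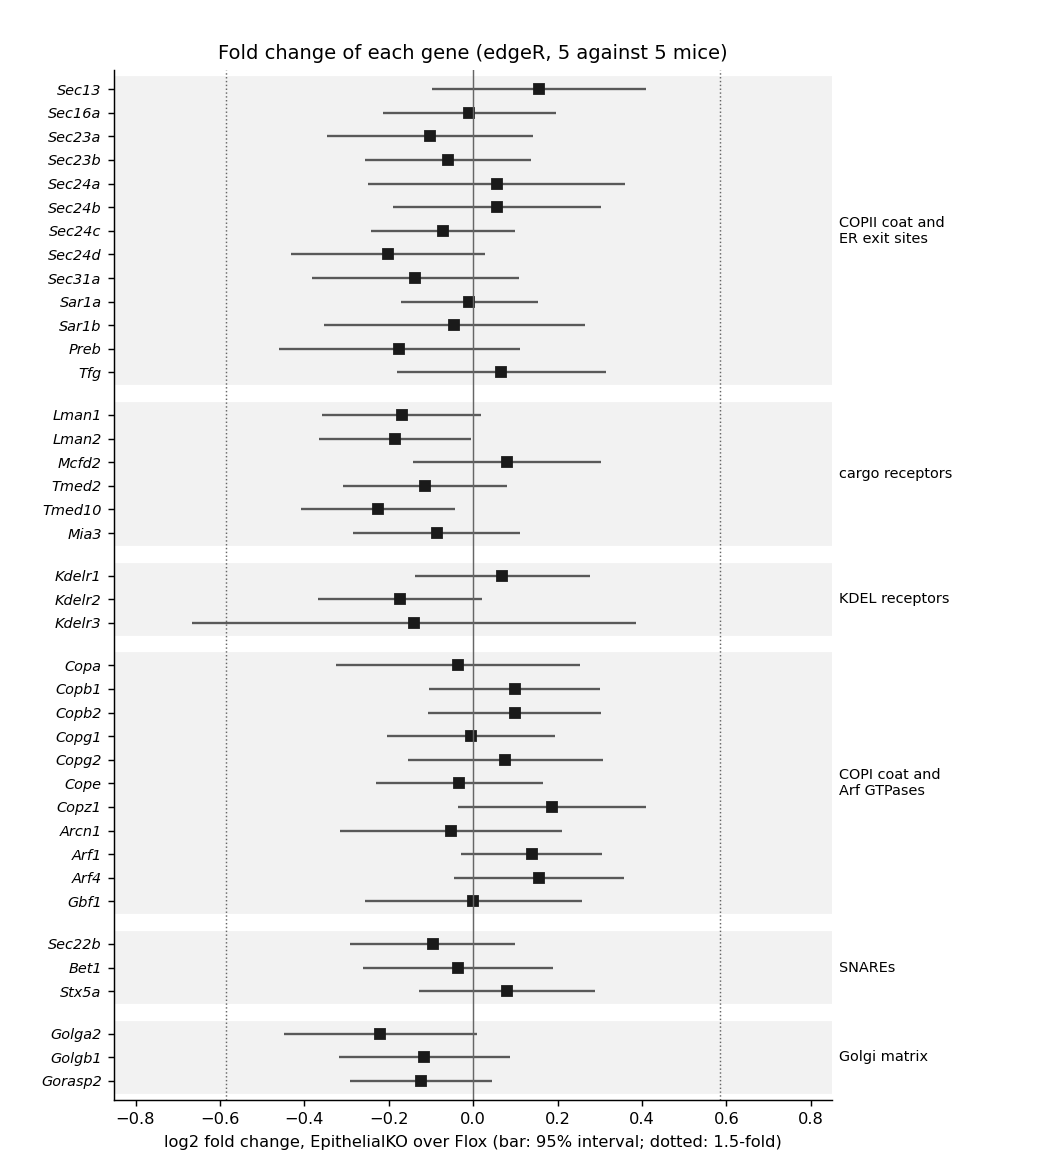
Log2 fold change of each of the 39 genes, EpithelialKO over Flox, with its 95% interval from edgeR (5 against 5 mice), grouped by role. Squares are the fold changes and dotted lines mark a 1.5-fold difference; the intervals of Tmed10 and Lman2 lie below 0, and only that of Kdelr3 crosses a dotted line.

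The levels of the genes differed far more between genes than between groups. Per kb of the principal transcript, Arf1 had the highest level, with 299.8 ± 11.9 CPM per kb in EpithelialKO and 272 ± 8.88 in Flox (SD, n = 5 each). The p24 cargo receptor Tmed2 came next, with 124 ± 6.15 CPM per kb in EpithelialKO and 134 ± 15.4 in Flox, and its mean ± SD overlapped that of no other gene of the set in either group. Tmed10, Sar1a, Arf4 and Cope followed, between 82.3 and 98.3 CPM per kb in EpithelialKO and between 85.8 and 96.2 in Flox. In Flox, where the order of these 4 was Tmed10, Sar1a, Arf4 and Cope, neighbours differed by less than the larger of their SDs. In EpithelialKO the order was Arf4, Sar1a, Cope and Tmed10, and Sar1a (93.0 ± 2.79) and Cope (83.9 ± 3.86) differed by more than their SDs. Sec24a had the lowest level, 3.72 ± 0.529 CPM per kb in EpithelialKO and 3.58 ± 0.617 in Flox, below Kdelr3 (5.37 ± 1.14 in EpithelialKO and 5.92 ± 1.91 in Flox).

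**Figure D2:**
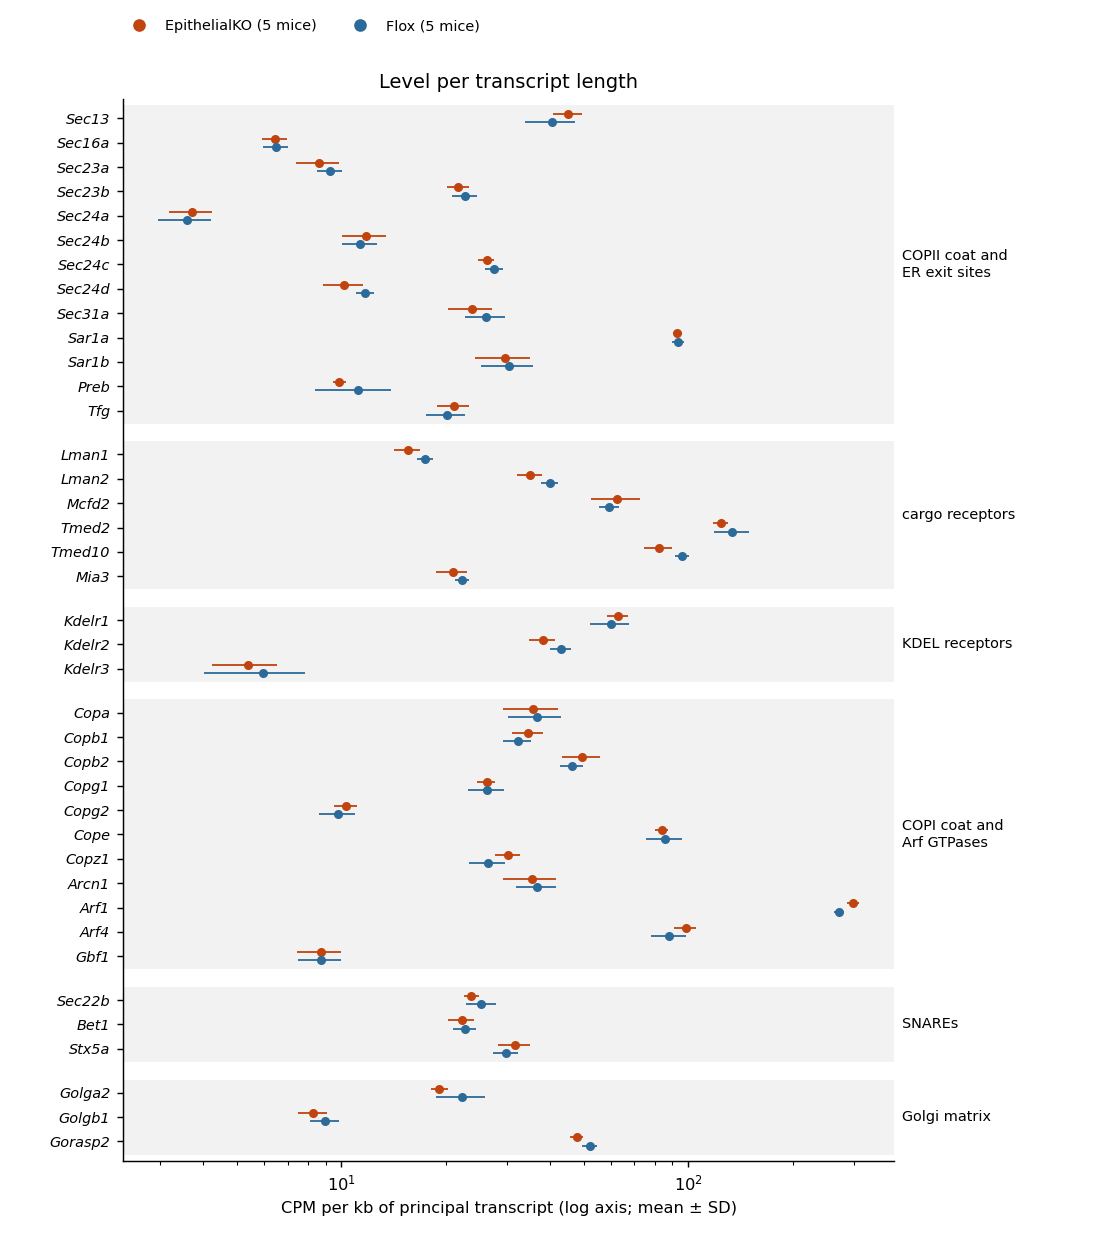
Level of each gene as CPM per kb of principal transcript on a log axis, mean ± SD of 5 mice, with EpithelialKO above Flox in each row. Arf1 is highest and Sec24a lowest in both groups, and the points of the groups lie close together in every row.

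In the COPII coat and at ER exit sites, 0 of 13 genes had an unadjusted p under 0.05. The fold change was negative in 9 and positive in 4, with a median of -0.04, or 0.03 without Flox mice 4 and 6. The coat forms when PREB loads the GTPase SAR1 with GTP at sites organised by SEC16A and TFG, after which SEC23 and SEC24 form the inner layer and SEC13 and SEC31 the outer one. Sec24d, 1 of the 4 cargo-binding SEC24 paralogs (chromosome 3, 123264801 to 123365641), had the lowest p, with 31.6, 44.9, 37.9, 42.0 and 42.7 CPM in EpithelialKO mice, against 47.8, 43.9, 46.2, 42.2 and 48.9 CPM in Flox mice. EpithelialKO mice 18 and 22 lay within the Flox range and the other 3 below it, mouse 17 farthest. The log2 fold change was -0.20 ± 0.11 (SE, edgeR adjusted p = 0.473).

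Sec13, an outer coat subunit that is also part of the nuclear pore (chromosome 6, 113728052 to 113740681), stood at 55.5, 56.8, 58.4, 67.7 and 67.0 CPM in EpithelialKO mice. It stood at 59.1, 59.1, 56.5, 39.0 and 60.2 CPM in Flox mice. Flox mouse 5 was low, and the other 4 Flox mice lay inside the EpithelialKO range. The log2 fold change was 0.16 ± 0.12 (SE, edgeR adjusted p = 0.636), and 0.06 without Flox mouse 5.

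The other coat genes varied in both directions. The outer subunit Sec31a averaged 100.5 ± 14.8 CPM in EpithelialKO and 110.5 ± 14.5 in Flox (SD, n = 5 each), with a log2 fold change of -0.14. For the inner subunits Sec23a, Sec23b and Sec24c it was -0.10, -0.06 and -0.07, and for Sec24a and Sec24b 0.06 in each. Preb, the exchange factor, averaged 62.2 ± 2.67 CPM in EpithelialKO and 70.2 ± 17.4 in Flox, with Flox mouse 5 at 97.1 CPM, and had -0.17. The GTPases Sar1a and Sar1b had -0.01 and -0.04. Sar1a was the steadiest of the 39 genes over the 10 mice, with a coefficient of variation of 3.28%, against a median of 9.96%. The scaffold Sec16a had -0.01 and Tfg 0.07. Summed over the 13 genes, EpithelialKO lungs had 937 ± 27.0 CPM and Flox lungs 964 ± 20.1, with overlap.

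Cargo receptors had the 2 lowest p-values. These proteins span the membrane or bind to it on the inside and load cargo into vesicles, and 5 of the 6 genes had a negative fold change, with a median of -0.14. Tmed10, a p24 family protein that cycles between ER and Golgi (chromosome 12, 85340614 to 85374717), had 120, 127, 118, 107 and 138 CPM in EpithelialKO mice. It had 146.5, 139, 152, 134 and 142 CPM in Flox mice. EpithelialKO mouse 22 lay above Flox mouse 5, and the other 4 EpithelialKO mice lay below every Flox mouse. The means were 122 ± 11.5 CPM in EpithelialKO and 143 ± 6.84 in Flox (SD, n = 5 each). Log2 of the ratio was -0.23 ± 0.09 (SE, edgeR adjusted p = 0.289).

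Lman2, a lectin that binds high-mannose glycoproteins (chromosome 13, 55343833 to 55362783), had 136, 163, 146, 165 and 146 CPM in EpithelialKO mice. It had 173, 161, 178, 165 and 184 CPM in Flox mice. EpithelialKO mice 18 and 21 lay within the Flox range and the other 3 below it, and all 5 lay below the Flox mean. The log2 fold change was -0.19 ± 0.09 (SE, edgeR adjusted p = 0.385). Without Flox mice 4 and 6 it was -0.20 for Tmed10 and -0.13 for Lman2, at unadjusted p of 0.0925 and 0.223.

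Lman1, the lectin that carries coagulation factors, averaged 72.6 ± 6.15 CPM in EpithelialKO and 81.6 ± 4.14 in Flox (SD, n = 5 each), with -0.17 (edgeR adjusted p = 0.455). Its soluble partner Mcfd2 had 0.08, the only positive value among the 6 cargo receptors. Tmed2, the binding partner of Tmed10, had -0.11, and Mia3, which helps export procollagen, had -0.09. The summed level of the 6 genes was 791, 858, 770, 756 and 788 CPM in EpithelialKO mice, against 853, 847, 846, 897 and 863 CPM in Flox mice. EpithelialKO mouse 18 lay within the Flox range and the other 4 lay below it. The lower matrix and endothelial marker levels of EpithelialKO lungs run beside these values, and their part in them was not tested.

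**Figure D3:**
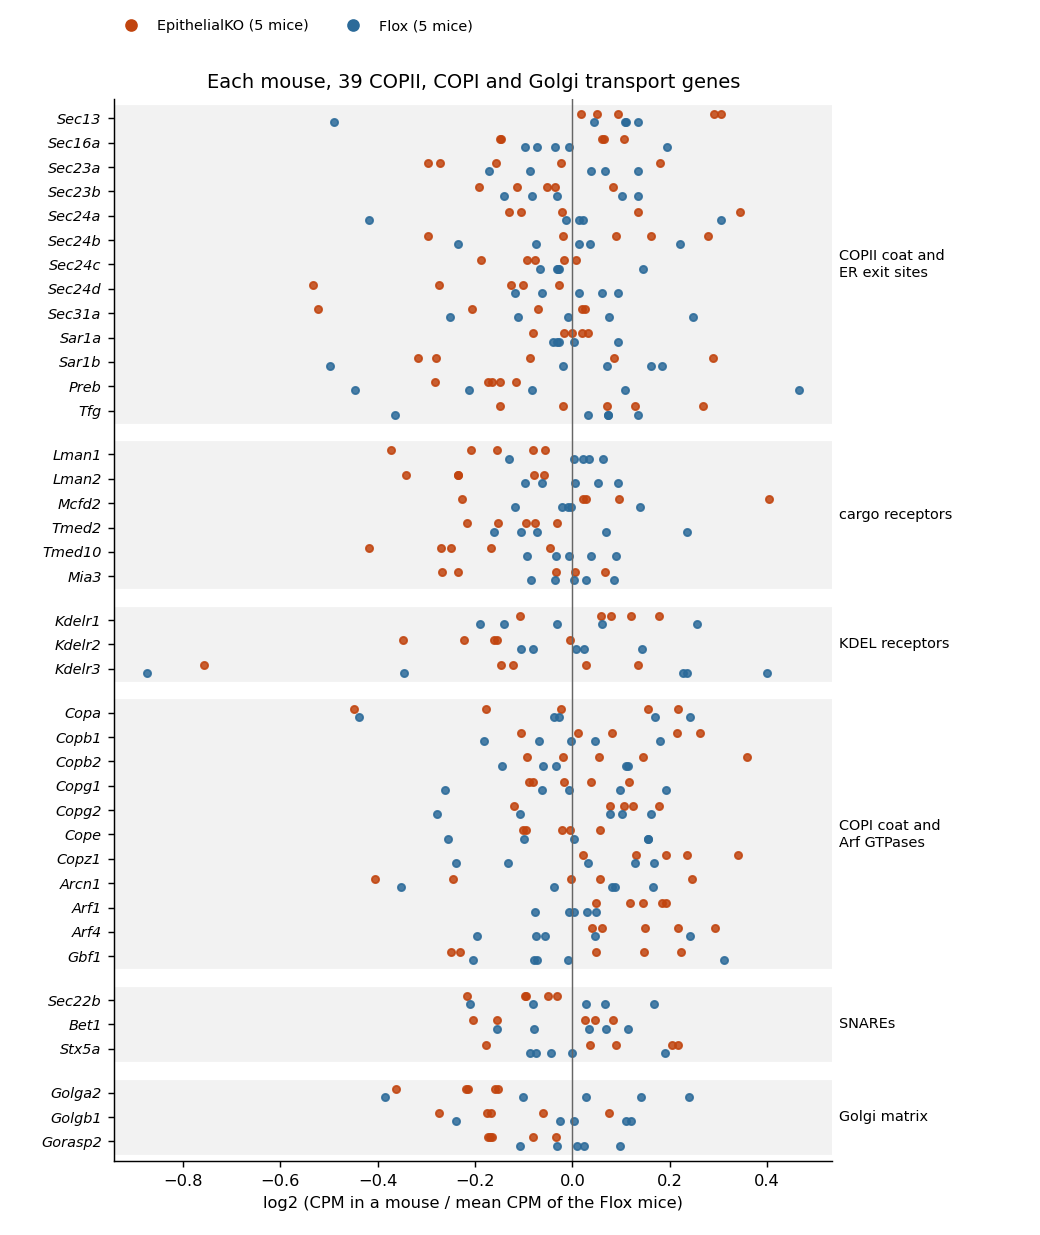
Each of the 10 mice for each of the 39 genes, as log2 of its CPM over the mean CPM of the Flox mice, with EpithelialKO in the upper line of each row. The groups overlap in 38 rows, and in Arf1 every EpithelialKO mouse lies right of every Flox mouse.

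KDEL receptors bind escaped ER chaperones in the Golgi and return them in COPI vesicles. Kdelr2 (chromosome 5, 143403820 to 143421904) had 78.2, 70.3, 61.7, 70.6 and 67.3 CPM in EpithelialKO mice, against 78.9, 74.3, 79.8, 86.7 and 73.0 CPM in Flox mice. EpithelialKO mouse 17 lay within the Flox range and the other 4 below it, at -0.17 ± 0.09 on the log2 scale (SE, edgeR adjusted p = 0.458). Kdelr1 (chromosome 7, 45872840 to 45883726) had 108, 101, 104, 99.6 and 88.8 CPM in EpithelialKO mice and 93.6, 99.8, 83.8, 114 and 86.8 CPM in Flox mice, with wide overlap. Its log2 fold change was 0.07 ± 0.10 (SE, edgeR adjusted p = 0.824). Kdelr3 was the most variable of the 39 genes, with a coefficient of variation of 26.7%, and averaged 7.57 ± 1.61 CPM in EpithelialKO and 8.36 ± 2.69 in Flox, with -0.14 ± 0.25 (SE).

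Ratios between paralogs within a library do not depend on how libraries are scaled, and 8 pairs were compared. The test was exact and two-sided, over the 252 ways to divide the mice into groups of 5, and its smallest possible p is 0.00794. None passed after adjustment over the 8 pairs. The lowest p was that of Kdelr2 to Kdelr1. Kdelr2 took 42.0, 41.0, 37.3, 41.5 and 43.1% of the pair's counts in EpithelialKO mice, against 45.7, 42.7, 48.8, 43.2 and 45.7% in Flox mice. Only EpithelialKO mouse 22 reached into the Flox range. The log2 ratio was -0.53 ± 0.13 in EpithelialKO and -0.28 ± 0.14 in Flox (SD, n = 5 each), a difference of -0.25 (exact permutation p = 0.0159, adjusted p = 0.127). Without Flox mice 4 and 6 the difference was -0.17 (exact permutation p = 0.0893, adjusted p = 0.357).

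The other pairs differed by less. The log2 ratio of Sec24d to Sec24c differed by -0.14 (exact permutation p = 0.222) and that of Copg2 to Copg1 by 0.08 (exact permutation p = 0.238). For Sec23a to Sec23b, Sec24a to Sec24b, Sar1b to Sar1a, Kdelr3 to Kdelr2 and Arf4 to Arf1, the difference lay between -0.05 and 0.07 with exact permutation p from 0.587 to 0.952. By counts, not corrected for length, Sar1b took 12.7% of the counts of the SAR1 pair in EpithelialKO and 13.0% in Flox, and Kdelr3 took 9.85% of its pair with Kdelr2 in EpithelialKO and 9.57% in Flox.

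**Figure D4:**
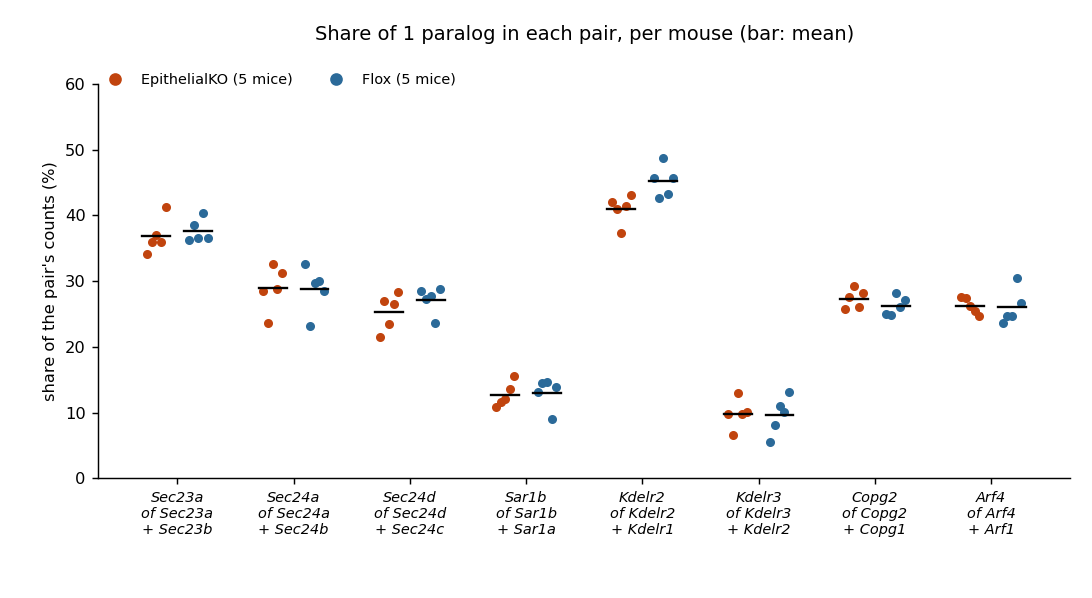
Share of the counts of each paralog pair taken by the gene named first, in percent, for each of the 5 EpithelialKO mice (left) and 5 Flox mice (right), with the mean as a bar. The share of Kdelr2 averages 41.0% in EpithelialKO and 45.2% in Flox, and the groups overlap in all 8 pairs.

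Of the genes of the COPI coat and its Arf GTPases, 7 of 11 had a positive fold change. Their median was 0.08, or 0.02 without Flox mouse 5. The coat subunits themselves went both ways. Copb1, Copb2, Copg2 and Copz1 were positive, and Copa, Copg1, Cope and Arcn1 were negative. The other positive genes were Arf1, Arf4 and Gbf1. Coatomer is recruited to Golgi membranes by ARF1 and related GTPases, which the exchange factor GBF1 activates. Arf1 (chromosome 11, 59211412 to 59228267) had 616, 589, 561, 620 and 599 CPM in EpithelialKO mice, against 540, 561, 553, 514 and 543 CPM in Flox mice. It was the only one of the 39 genes whose groups did not overlap, which held for 1.63% of all genes tested with EpithelialKO higher and 1.48% with EpithelialKO lower. The lowest EpithelialKO value, 561.0 CPM, and the highest Flox value, 560.6 CPM, nearly met. The means were 597 ± 23.6 CPM in EpithelialKO and 542 ± 17.7 in Flox (SD, n = 5 each). Log2 of the ratio was 0.14 ± 0.08 (SE, edgeR adjusted p = 0.501).

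Copz1, the zeta subunit of coatomer (chromosome 15, 103272888 to 103299865), had 56.2, 52.2, 48.6, 45.0 and 50.8 CPM in EpithelialKO mice. It had 45.4, 40.5, 48.6, 37.6 and 49.9 CPM in Flox mice. All 5 EpithelialKO mice lay above the Flox mean, and the groups overlapped. The log2 fold change was 0.19 ± 0.11 (SE, edgeR adjusted p = 0.497). Arf4, a second GTPase of the early Golgi, averaged 213 ± 15.7 CPM in EpithelialKO and 191 ± 22.3 in Flox, with 0.16.

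The larger coatomer subunits lay close to 0 on the same log2 scale. Copb1 and Copb2, the beta and beta-prime subunits, had 0.10 each and Copg2 had 0.08. Copa, Copg1, Cope and Arcn1, the alpha, gamma, epsilon and delta subunits, had -0.04, -0.005, -0.03 and -0.05, and Gbf1 had 0.0005. Summed CPM of the 11 genes was 1694, 1738, 1668, 1815 and 1838 in EpithelialKO mice, against 1685, 1661, 1645, 1539 and 1775 in Flox mice. Flox mouse 5 was the lowest and held the lowest value of the 10 mice in 6 of the 11 genes.

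SNARE proteins drive the fusion of these vesicles with their target membranes. Sec22b (chromosome 3, 97901227 to 97922318) had 68.8, 61.3, 66.7, 66.6 and 69.7 CPM in EpithelialKO mice, against 61.6, 74.6, 67.3, 80.0 and 72.6 CPM in Flox mice. The groups overlapped, at -0.10 ± 0.09 on the log2 scale (SE, edgeR adjusted p = 0.723). Stx5a (chromosome 19, 8741424 to 8755642) had 59.5, 77.5, 78.2, 69.0 and 71.5 CPM in EpithelialKO mice, against 76.7, 63.3, 67.2, 63.9 and 65.2 CPM in Flox mice. All 5 Flox mice lay within the EpithelialKO range, and EpithelialKO mouse 17 lay below every Flox mouse, with 0.08 ± 0.10 (SE, edgeR adjusted p = 0.793). Bet1, their partner, had -0.04. The median of the 3 SNAREs was -0.04, or 0.03 without Flox mice 4 and 6.

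All 3 Golgi matrix genes had a negative fold change, with a median of -0.12. Golga2 encodes GM130, which tethers vesicles and stacks at the cis face of the Golgi (chromosome 2, 32288287 to 32307913). It had 83.9, 76.0, 87.8, 84.2 and 87.4 CPM in EpithelialKO mice, against 99.5, 115, 91.0, 74.8 and 108 CPM in Flox mice. Flox mouse 5 lay below every EpithelialKO mouse and the other 4 Flox mice lay above them, with -0.22 ± 0.11 (SE, edgeR adjusted p = 0.424). Without Flox mouse 5 its adjusted p was 0.133, the lowest of any of the 39 genes in any fit.

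Gorasp2, a stacking protein (chromosome 2, 70661509 to 70691725), had 110, 104, 114, 104 and 103 CPM in EpithelialKO mice, against 108, 117, 118, 124 and 114 CPM in Flox mice. EpithelialKO mice 17 and 20 lay within the Flox range and the other 3 below it, with -0.12 ± 0.08 (SE, edgeR adjusted p = 0.558). Golgb1, the tether giantin, had -0.12. The mean log2 CPM of the 3 genes was 6.54, 6.46, 6.54, 6.59 and 6.56 in EpithelialKO mice, against 6.71, 6.77, 6.70, 6.52 and 6.73 in Flox mice. Only Flox mouse 5 lay within the EpithelialKO range.

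**Figure D5:**
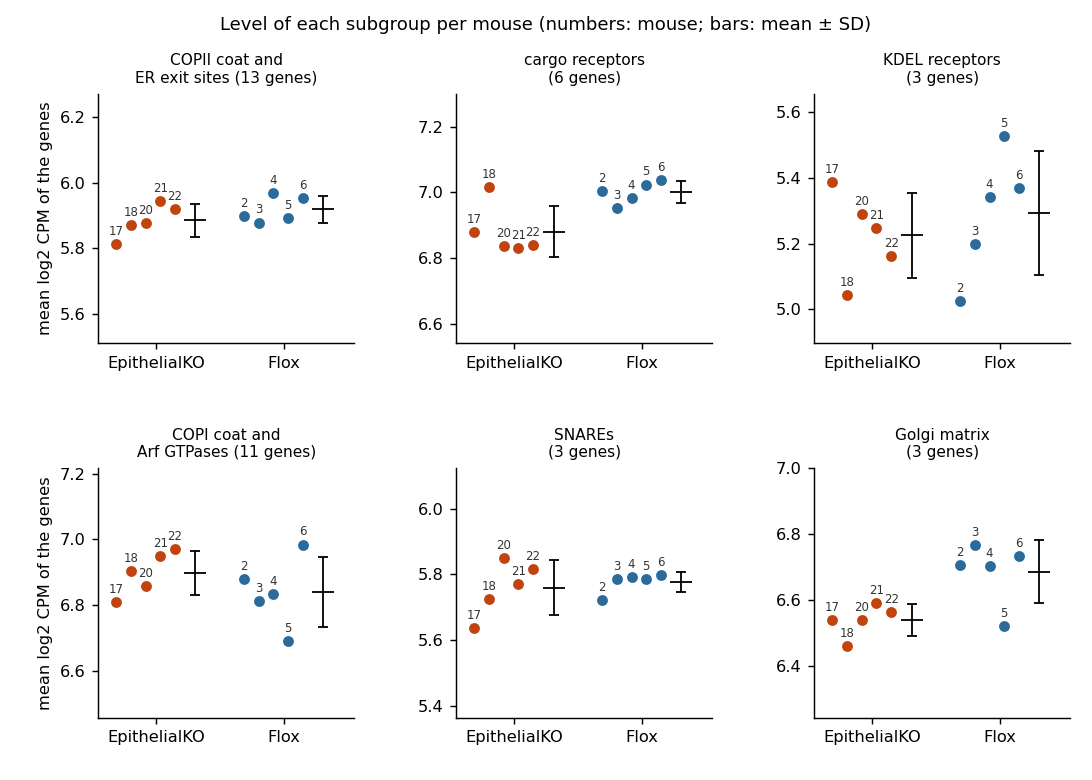
Mean log2 CPM of the genes of each subgroup in each mouse, with mouse numbers, and the mean ± SD of the 5 EpithelialKO (left) and 5 Flox mice (right). The groups overlap in all 6 subgroups, by 1 mouse each in the cargo receptors (EpithelialKO mouse 18) and the Golgi matrix (Flox mouse 5).

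Other genes of the pathway came from 3 lists chosen by function, also with earlier results of these data known. Of 23 further COPII and ER exit genes 15 had a positive fold change, of 24 further COPI and retrograde genes 12, and of 21 further Golgi structure and tethering genes 10. None of the 68 passed the adjusted threshold in edgeR. At an unadjusted p under 0.05 there were 2 higher and 4 lower, against 5.87% and 6.52% of all genes tested. The 6 are given next.

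Creb3l2 encodes a membrane-bound transcription factor that in mice is known to activate Sec23a in cartilage. It had 13.2, 16.6, 12.7, 23.6 and 20.6 CPM in EpithelialKO mice, against 22.4, 21.3, 27.0, 26.8 and 35.6 CPM in Flox mice. EpithelialKO mouse 21 lay within the Flox range, and the log2 fold change was -0.62 ± 0.19 (SE, edgeR adjusted p = 0.184). Without Flox mice 4 and 6 it was -0.44, at an unadjusted p of 0.0519. Its relatives Creb3 and Creb3l1, of the same list, went the other way. Their log2 fold changes were 0.15 (edgeR adjusted p = 0.532) and 0.26 (edgeR adjusted p = 0.501). Both were named after their values were seen.

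Surf4, a cargo receptor for soluble proteins whose exons overlap those of Surf2, had 159, 158, 159, 160.5 and 157 CPM in EpithelialKO mice, against 178, 187, 183, 193 and 176 CPM in Flox mice. All 5 EpithelialKO mice lay below all 5 Flox mice, with -0.21 ± 0.07 (SE, edgeR adjusted p = 0.253). No other gene of these lists had groups without overlap, and 1.48% of all genes tested had none with EpithelialKO lower. The p24 gene Tmed9 had -0.21 (edgeR adjusted p = 0.335) and the golgin Gcc2 -0.23 (edgeR adjusted p = 0.385). The SNARE Use1 had 0.33 ± 0.11 (SE, edgeR adjusted p = 0.217), and Sec23ip, which binds SEC23, 0.25 ± 0.10 (SE, edgeR adjusted p = 0.300); Sec23ip was chosen after its values were seen. Cog2, of the COG tethering complex, had 0.18 (edgeR adjusted p = 0.573).

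Of the regulators, Xbp1 averaged 242 ± 38.8 CPM in EpithelialKO and 236 ± 23.9 in Flox, with 0.04 ± 0.11 on the log2 scale (SE, edgeR adjusted p = 0.938), and gene counts do not separate its spliced form. Atf6 encodes an ER stress sensor that itself works as a transcription factor. It had 57.1, 57.3, 43.1, 57.8 and 44.9 CPM in EpithelialKO mice, against 76.3, 60.9, 74.6, 64.2 and 66.5 CPM in Flox mice. These values did not overlap, as in 1.48% of all genes tested with EpithelialKO lower, with -0.40 ± 0.11 (SE, edgeR adjusted p = 0.162). Among the 39 genes, the log2 fold change of the 9 with TGACGTG in a window had its median at 0.0005, and 4 were negative and 5 positive. The other 25 with a window had their median at -0.03, with 16 negative and 9 positive.

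Single mice stood apart across the whole set. Flox mouse 6 lay above the median of the 10 mice in 30 of the 39 genes, against 14 to 21 in each of the other mice. Flox mouse 5 was the lowest of all mice in 10 genes and the highest in 8. EpithelialKO mouse 17 was the lowest in 8. The summed CPM of the 39 genes was 4015, 4143, 4012, 4181 and 4197 in EpithelialKO mice, against 4143, 4128, 4129, 4082 and 4280 in Flox mice. The means, 4110 ± 90.0 CPM in EpithelialKO and 4153 ± 74.9 in Flox (SD, n = 5 each), differed by less than either SD.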

How the data were processed

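Whole-lung polyadenylated RNA of 10 mice was sequenced, 1 library per mouse. Per the labels' protocols, Trizol extraction was followed by oligo(dT) capture and random hexamer priming. The submitters' processing notes name cutadapt, HISAT2 and the build GRCm38. Neither versions nor the counting tool and its strand setting are given in the sources used here. A table that the authors deposited holds raw counts, 1 row per Entrez gene and 1 column per mouse, and 25275 of 27179 genes matched a RefSeq symbol. Of the 39 genes, 11 have exons that overlap another gene, among them Preb, Kdelr3, Copa, Arf4, Golgb1 and Gorasp2, so reads may be shared.

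Low counts were removed with filterByExpr, libraries were scaled by TMM, and groups were compared in edgeR 4.0.16 by its robust quasi-likelihood F test, with group as the single term, in R 4.3.3. P-values were adjusted by Benjamini-Hochberg over 15301 genes, at a threshold of 0.05. SEs come from the F statistic, and 95% intervals from the same fit. The level of a subgroup is the mean log2 CPM with a prior count of 2. Paralog ratios used a prior count of 0.5 and an exact permutation test (SciPy 1.17.1, Python 3.11.15). Lengths and coordinates are those of GENCODE M21 and RefSeq on GRCm38.

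Every gene of the list is given a value. Values per mouse are given for genes past a threshold, genes whose groups do not overlap, and otherwise the 2 lowest p in each subgroup. For the other pathway lists the 2 lowest p are named, with Sec23ip, Creb3 and Creb3l1 as stated exceptions. The genes, lists and tests were chosen with earlier results of these data known. Alternatives were other scalings, DESeq2 1.42.0, limma-voom (limma 3.58.1), other count filters, leaving out mice, and a threshold of 0.1. Counting depth is not the only limit on precision: with 5 mice per group, p-values also depend on the spread between mice.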

Additional observations from a re-analysis of the deposited data

Results flagged for a closer look

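In each group of 5 mice, a mouse was listed when its gap to the nearest other mouse exceeded 0.71 of the range of the group. Of the 108 groups of values examined 9 met this, and of the 78 groups of single genes 5 did. Chance gives about 1 in 20.

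Among the COPII genes, Flox mouse 5 was low for Sec13 at 39.0 CPM and for Tfg at 30.4 CPM, and high for Sec24c at 136.0 CPM. Flox mouse 4 was high for Sec16a at 64.7 CPM. The same Flox mouse 5 was low for the log2 ratio of Sar1b to Sar1a, at -3.33, and for the mean log2 CPM of the Golgi matrix genes, at 6.52. Flox mouse 2 was high for Stx5a at 76.7 CPM and low for the mean log2 CPM of the 3 SNAREs at 5.72. EpithelialKO mouse 18 was high for the mean log2 CPM of the cargo receptors at 7.02.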

How the results depend on the processing

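No gene of the 39 passed the adjusted threshold under any of the alternatives run, the threshold of 0.1 included, and the lowest adjusted p was 0.133. At an unadjusted p under 0.05 the 2 genes became 1 with upper quartile scaling, 1 with no filter on counts, 1 without Flox mice 4 and 6 (Copz1) and 4 with limma-voom. Leaving out 1 mouse gave 1 to 4. There were 4 (Arf4, Golga2, Lman2 and Tmed10) without Flox mouse 5, Tmed10 alone without Flox mouse 2 or 4 or EpithelialKO mouse 20 or 22, and Lman2 alone without EpithelialKO mouse 21. Without Flox mice 4 and 6 the median log2 fold change was 0.0265 for all 39 genes, 0.0265 for the COPII genes and 0.0301 for the SNAREs. The cause was not tested. With single mice left out, the median ran from -0.19 to -0.02 for the KDEL receptors, from -0.07 to 0.003 for the SNAREs and from 0.02 to 0.12 for the COPI genes. Of the 39 genes, 16 changed the sign of a fold change of at most 0.14 in size under at least 1 of 17 alternatives, and 23 did not. Of the 23, 15 were negative and 8 positive. On the strand of the gene alone, which counts fewer matches by construction, TGACG was in 44.1% of the promoters, against 13.9% of all genes and 20.9% of those tested, and TGACGTG in 14.7%, against 1.2% and 1.79%.

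Over all genes, 6 passed in edgeR, 279 in the DESeq2 Wald test, 32 with limma-voom and 34 with no filter. At a threshold of 0.1 in edgeR 38 passed, and 48 passed at 0.05 without Flox mouse 5. Without Flox mice 4 and 6, or without any single mouse other than Flox mouse 5, 0 passed in edgeR, at 1207 to 1960 genes of an unadjusted p under 0.05. No paired analysis was possible because no mouse number is shared between the groups.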
